A study of Mus musculus with 8 samples.

Results

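Dpy19l1, Dpy19l3 and Dpy19l4 are 3 of the 4 Dpy19-like genes of the mouse, and they were examined in the RNA of whole fetal brains at E15.5, a day of cortical neurogenesis. They were chosen by name from 54752 annotated genes, after their stress-against-control results were known. All 3 passed the filter on low counts, as did 17865 genes in all. The stress-against-control values of these 3 genes are therefore given below as a description with no p-value.

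The brains came from wild-type fetuses of strain C57BL/6 by the labels, and of C57BL/6Slac mice by the study's methods. The 4 stress brains were F34, F35, M28 and M29, where F marks a female and M a male. They came from a dam kept under chronic unpredictable mild stress (CUMS), a changing daily schedule of mild stressors. By the study's methods, the stress was applied during pregnancy until the day before the brains were collected. The 4 control brains (F36, F37, M30 and M31) came from a dam left in its home cage. Each group was thus 1 litter, so litter and stress cannot be told apart, and the spread within a group is that between littermates. The labels call the tissue whole brain and the study's sample sheet adds a term for a part of it, so levels are averages over many regions and cell types. Each brain gave 25320109 to 29105710 read pairs assigned to genes.

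Of the DPY19L proteins, DPY19L1 and DPY19L3 are multi-pass enzymes of the endoplasmic reticulum. They attach a mannose through a carbon-carbon bond to tryptophans of thrombospondin type 1 repeats (TSRs), taking the sugar from dolichol-phosphate-mannose. TSRs are short modules found in guidance receptors such as the UNC5 netrin receptors, in secreted matrix proteins and in ADAMTS proteases, and the sugar helps them to fold and leave the cell. The family is named after C. elegans DPY-19, which is needed for neuroblast migration, and mouse Dpy19l1 is known for its part in the radial migration of glutamatergic neurons of the developing cortex. Both DPY19L1 and DPY19L3 have C-mannosyltransferase activity, and DPY19L3 also acts on R-spondins. Dpy19l2, the remaining gene, is known for its role in forming the sperm head. The libraries count transcripts, so neither mannosylation nor migration was measured.

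All 4 genes lie on the minus strand of mm10. Dpy19l1 (ENSMUSG00000043067.15) spans chr9:24411776-24503140, with 27 exon blocks of 6350 bases in all. Dpy19l2 (ENSMUSG00000085576.3) lies just upstream of it at chr9:24557047-24696293. Dpy19l3 (ENSMUSG00000043671.14) spans chr7:35685165-35754454, with 20 exon blocks of 11367 bases. Dpy19l4 (ENSMUSG00000045205.16) spans chr4:11261315-11322137, with 20 exon blocks of 8101 bases. The exons of Dpy19l1, Dpy19l2 and Dpy19l3 share no base with another annotated gene, and no stretch of 100 bases of their transcripts was found in a transcript of any other gene. In Dpy19l4, 2.39% of the exon bases overlap the antisense gene Gm26663, whose own count was at most 2 in any brain.

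The 250 bases before the annotated start of Dpy19l1 and Dpy19l3 are shown because Dpy19l1 had the largest group difference of the members and Dpy19l3 had differences of opposite sign in the sexes. They were taken from RefSeq (GRCm38.p6, minus strand, chr9:24503141-24503390 and chr7:35754455-35754704) and are written 5′ to 3′, with a CCAAT box in capitals. No entry for Dpy19l4 was in the table used.
Dpy19l1: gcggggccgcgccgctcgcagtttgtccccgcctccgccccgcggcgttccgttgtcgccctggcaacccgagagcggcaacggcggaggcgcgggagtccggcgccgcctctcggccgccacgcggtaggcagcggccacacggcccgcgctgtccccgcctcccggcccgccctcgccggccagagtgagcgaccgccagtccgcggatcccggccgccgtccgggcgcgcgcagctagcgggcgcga
Dpy19l3: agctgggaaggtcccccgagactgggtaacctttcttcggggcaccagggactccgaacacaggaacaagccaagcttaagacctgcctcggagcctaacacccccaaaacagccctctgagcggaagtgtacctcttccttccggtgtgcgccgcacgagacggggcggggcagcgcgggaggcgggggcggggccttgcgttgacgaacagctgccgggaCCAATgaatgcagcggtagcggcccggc
The Dpy19l1 window was 80.8% G and C with 48 CpG pairs, and it had a higher G and C content than 99.0% of 32851 such windows (median 52.4%). The Dpy19l3 window was 65.6% G and C with 21 CpG pairs. Both strands were searched for the CCAAT box (CCAAT), the cell cycle homology region (TTTGAA) and an E2F site (TTTCCCGC, TTTGGCGC, TTTCGCGC or TTTGCCGC). The only match was the CCAAT of Dpy19l3, 28 to 24 bases before the start, with no other motif overlapping it. Of all windows, 33.8% held a CCAAT, 16.0% the cell cycle homology region and 1.86% an E2F site.

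Dpy19l1 was the most abundant family transcript of the fetal brain. Levels between genes are given in TPM, read pairs per exon length scaled to the same sum in every brain. Dpy19l1 averaged 96.4 ± 10.8 TPM (SD, n = 8), above 88.4% of the genes tested. Dpy19l4 averaged 22.01 ± 0.841 TPM and Dpy19l3 21.8 ± 1.17 TPM, both a little above the median gene at 16.3 TPM. The ranges of these last genes overlapped (20.7 to 23.1 TPM for Dpy19l4, 20.3 to 23.2 TPM for Dpy19l3), so their order was not resolved, whereas every brain had more Dpy19l1 (84.0 to 109 TPM). Dpy19l2 averaged 0.761 ± 0.315 TPM, and 5.44% of the genes tested were lower.

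**Figure D1:**
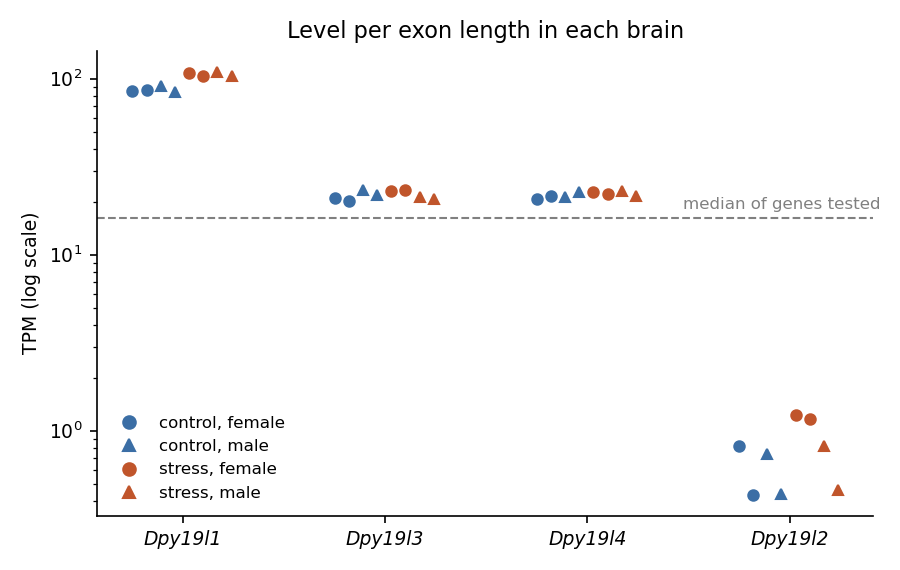
TPM of each Dpy19l gene (x axis) in each of the 8 brains, on a log axis, with circles for females and triangles for males. The dashed line is the median gene tested (16.3 TPM): Dpy19l1 lies well above it in every brain, Dpy19l3 and Dpy19l4 lie just above it with overlapping points, and Dpy19l2 lies below it.

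Dpy19l1 was higher in the stress brains. In CPM (read pairs scaled to library totals that were adjusted by the trimmed mean of M-values), the control brains F36, F37, M30 and M31 had 141, 142, 150 and 137 CPM. The stress brains F34, F35, M28 and M29 had 175, 170, 180 and 173 CPM. The lowest stress brain was thus above the highest control brain. Group means were 142 ± 5.53 and 175 ± 4.36 CPM (SD, n = 4 each), a log2 fold change of 0.29 (SE 0.03) or 22.6%. Of all genes tested, 8.20% had every stress brain above every control brain. In the edgeR quasi-likelihood fit, 6.49% of genes were called higher in stress at an adjusted p under 0.05, 7.27% lower and 13.8% in either direction. Of the 3 members, 1 (Dpy19l1) was among those called, but it was chosen with this contrast known, so nothing is read from that count. The genes called in either direction had a median absolute log2 fold change of 0.18, and 80.7% of those called higher changed by less than Dpy19l1. That rank comes from the same known contrast, so nothing is read from it either.

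Dpy19l3 was at similar levels in both groups. Control brains F36, F37, M30 and M31 had 61.9, 59.97, 68.1 and 63.9 CPM, and stress brains F34, F35, M28 and M29 had 66.5, 67.8, 63.1 and 61.9 CPM. The ranges overlapped, with means of 63.5 ± 3.49 and 64.8 ± 2.81 CPM, and the log2 fold change was 0.03 (SE 0.04, 95% interval -0.05 to 0.11).

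Dpy19l4 likewise overlapped between the groups. Control brains F36, F37, M30 and M31 had 43.6, 45.6, 44.7 and 47.3 CPM, and stress brains F34, F35, M28 and M29 had 47.2, 46.1, 48.6 and 46.2 CPM. Means were 45.3 ± 1.57 and 47.0 ± 1.13 CPM, with a log2 fold change of 0.05 (SE 0.04, 95% interval -0.02 to 0.13).

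**Figure D2:**
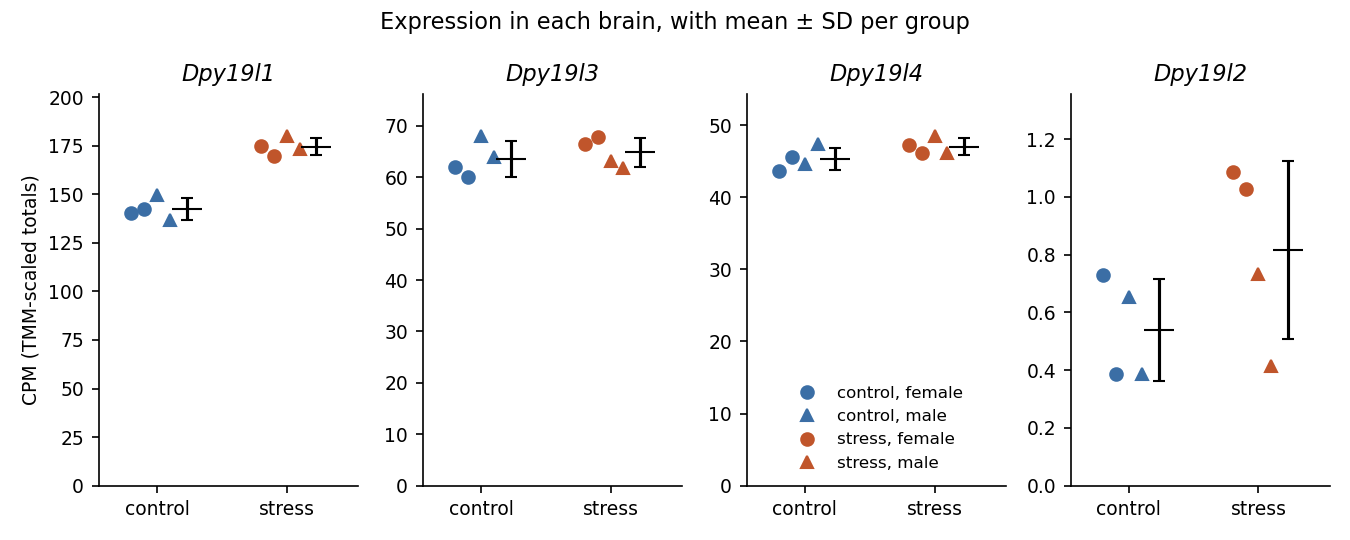
CPM of each Dpy19l gene in the control and stress brains (points, circles for females and triangles for males), with the group mean and SD as bars (n = 4 each) and each axis starting at 0. The Dpy19l1 groups do not overlap (137 to 150 against 170 to 180 CPM), and those of the other genes do.

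The same Dpy19l1 difference can be read within each brain. The share of Dpy19l1 in the summed TPM of the 4 genes was 65.0% to 67.1% in control and 69.1% to 70.8% in stress brains. The TPM ratio of Dpy19l1 to Dpy19l3 was 3.82 to 4.25 in control and 4.48 to 5.11 in stress brains, and that of Dpy19l1 to Dpy19l4 was 3.68 to 4.28 and 4.69 to 4.79. The ratio of Dpy19l3 to Dpy19l4 stayed between 0.926 and 1.09 over the 8 brains, with overlapping groups. These ratios do not depend on the scaling of the totals, and they restate the contrast that was known when the genes were chosen.

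Dpy19l2 was close to the limit of the libraries. Control brains F36, F37, M30 and M31 had 20, 11, 18 and 11 read pairs, and stress brains F34, F35, M28 and M29 had 30, 26, 21 and 12. The groups overlapped, and the log2 fold change of 0.58 (SE 0.28) did not pass edgeR's test (adjusted p = 0.175).

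Sex was not used to choose the members, so it could be tested. None of the 3 members was called between females and males by edgeR or DESeq2, against 0.0896% of all genes called by edgeR at an adjusted p under 0.05. None of the members had an unadjusted p under 0.05 by either tool (0 of 3). The log2 difference of females from males was -0.03 for Dpy19l1 (SE 0.03, adjusted p = 0.935), -0.0054 for Dpy19l3 (SE 0.04, adjusted p = 0.991) and -0.03 for Dpy19l4 (SE 0.04, adjusted p = 0.935). Exact two-sided permutation tests of log2 CPM with 4 animals per sex gave p = 0.743, 0.943 and 0.343, where 0.0286 was the smallest they can give. These permutations took no account of the stress group, so for Dpy19l1 the group difference widens the spread within each sex. Without the condition term the edgeR SE of Dpy19l1 was 0.083. The 95% intervals of the edgeR fit with condition were -0.09 to 0.03, -0.08 to 0.07 and -0.11 to 0.04.

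The stress difference of Dpy19l1 was similar in size in females and males. It was 0.28 (SE 0.04) in females, with means of 141 and 172 CPM, and 0.30 (SE 0.04) in males, with means of 143 and 177 CPM (n = 2 per sex and group). The interaction of sex and stress, the difference in females minus that in males, was -0.02 (SE 0.06, adjusted p = 0.974, 95% interval -0.14 to 0.10). For Dpy19l4 it was 0.02 (SE 0.08, adjusted p = 0.974, 95% interval -0.12 to 0.17).

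The stress brains lay on opposite sides of the controls in the sexes for Dpy19l3. Both stress females (66.5 and 67.8 CPM) were above both control females (61.9 and 59.97 CPM), and both stress males (63.1 and 61.9 CPM) were below both control males (68.1 and 63.9 CPM). The log2 difference was 0.14 (SE 0.05) in females and -0.08 (SE 0.05) in males, which gave an interaction of 0.22 (SE 0.07). Its unadjusted edgeR p was 0.00307 and its adjusted p = 0.51, so it did not pass over all genes. Of the genes tested, 106 (0.593%) had an unadjusted interaction p as small, and 838 (4.69%) had both stress brains beyond both control brains in opposite directions in the sexes. Of these, 370 (2.07%) were higher in females and lower in males, and 468 (2.62%) the reverse. Over all genes, 6.31% had an unadjusted interaction p under 0.05 and 0.00560% (1 gene) an adjusted one. Of the 3 members, Dpy19l3 alone had an unadjusted p under 0.05, by edgeR and by DESeq2, and neither tool called any of them after adjustment.

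**Figure D3:**
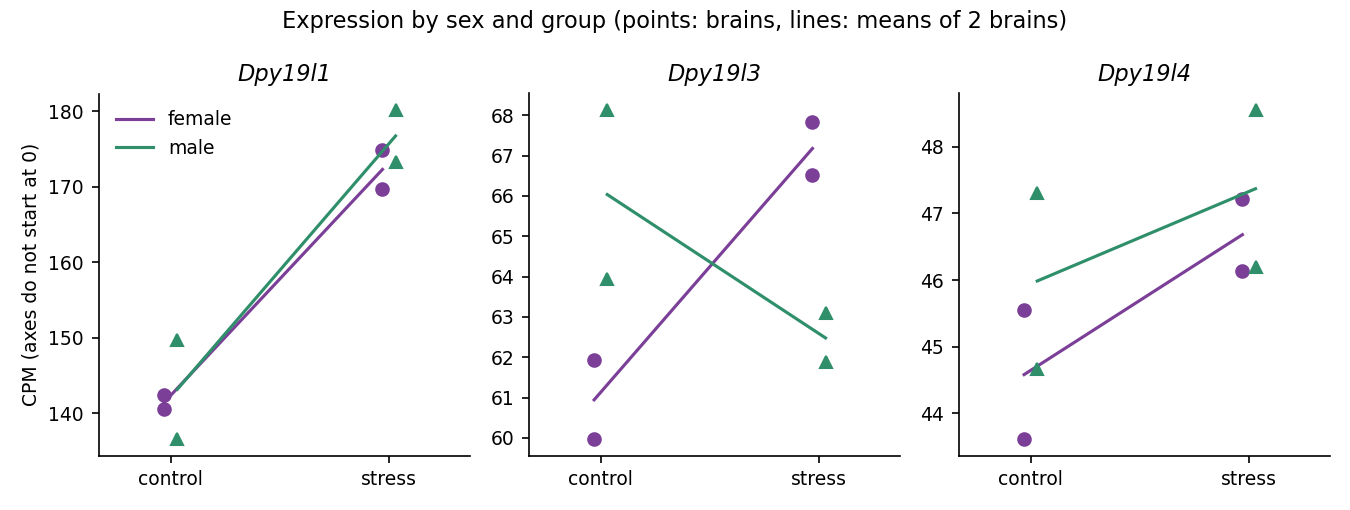
CPM of the 3 members in control and stress brains, with females as circles and males as triangles and lines joining the means of 2 brains; the axes do not start at 0. The lines of Dpy19l1 nearly coincide, those of Dpy19l4 are close to parallel, and those of Dpy19l3 cross (females from 60.9 to 67.2 CPM, males from 66.0 to 62.5 CPM).

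Of 14 tested genes that supply the enzymes' sugar donor, dolichol-phosphate-mannose, 2 rose and 0 fell, close to the 13.8% called over all genes, with a median log2 fold change of -0.0076 against 0.0015 over all genes. Mpdu1, needed for the use of the donor in the endoplasmic reticulum, rose from 43.1 ± 1.62 to 47.8 ± 1.66 CPM (log2 fold change 0.15, adjusted p = 0.0132), and lost the call without the control brain M31 or the stress brain M28. Pmm2, the phosphomannomutase, rose by 0.14 on the log2 scale (adjusted p = 0.0361), but was called in 5 of 13 alternative settings. Nus1, which acts in dolichol synthesis, had the highest level of the list (81.8 TPM) and a log2 fold change of -0.07 (adjusted p = 0.181). Dpm2, a subunit of the synthase, was at 0.04 (adjusted p = 0.652). Among 13 other transferases that draw on the same donor, 0 were called by edgeR or by DESeq2. By edgeR, 5 of them had an unadjusted p under 0.05, where 4800 of the 17865 genes tested had one. Without F35, edgeR called 1 of these transferases higher. The mannosyltransferases of N-glycan assembly Alg3 (0.16, adjusted p = 0.11) and Alg9 (-0.09, adjusted p = 0.126) had signs opposite to each other, and the O-mannosyltransferase Pomt1 was at -0.09 (adjusted p = 0.155). TSRs are also O-fucosylated, and neither gene of that step, Pofut2 (-0.07, adjusted p = 0.395) or B3glct (0.09, adjusted p = 0.16), was called by edgeR or DESeq2, although 1 had an unadjusted p under 0.05 by edgeR.

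Genes for TSR-bearing receptors went both ways. Of 12 tested, 2 rose and 3 fell, with a median of -0.0022, where 13.8% of all genes were called in either direction. Sema5a, a semaphorin of axon guidance, rose from 75.4 ± 3.14 to 86.6 ± 2.81 CPM (log2 fold change 0.20, adjusted p = 0.000248). Thsd7a rose from 65.5 ± 1.59 to 73.9 ± 2.76 CPM (0.17, adjusted p = 0.00114). Neither gene's groups overlapped, where 8.20% of all genes tested had every stress brain above every control brain. The adhesion receptors Adgrb2 (-0.13, adjusted p = 0.00504) and Adgrb1 (-0.11, adjusted p = 0.0166), the highest of the list at 102 and 93.9 TPM, fell with overlapping groups. Unc5a, a netrin receptor of the family that carries TSRs, fell by 0.12 on the log2 scale (adjusted p = 0.0349). Its groups did not overlap either (48.6 to 51.8 CPM in control, 44.6 to 47.3 CPM in stress brains). The share of all genes separated downward was not counted. Unc5a was called in 4 of 13 alternative settings. Unc5b, Unc5c and Unc5d were not called. Without M30, F35 or M29, 1 of the receptor genes was called lower.

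Among 16 tested genes for secreted TSR proteins, 1 rose and 2 fell, with a median of -0.08. The matrix gene Thsd4 rose by 0.21 on the log2 scale (adjusted p = 0.0467), and Cilp2 (-0.34, adjusted p = 0.0242) and Cfp, the complement regulator properdin (-0.19, adjusted p = 0.0249), fell. DESeq2 called none of these 3, and without F37 or M29 0 of the list were called lower. Thsd4 was called in 5 of 13 alternative settings. Spon1 (-0.04, adjusted p = 0.694) and the Wnt agonist Rspo3 (-0.02, adjusted p = 0.855) were not called. Of 21 tested ADAMTS and ADAMTS-like genes, 3 rose and 1 fell, with a median of -0.0011. Adamts12 rose from 2.97 ± 0.274 to 4.37 ± 0.201 CPM (0.56, adjusted p = 0.00108), Adamts17 from 10.04 ± 0.369 to 12.5 ± 1.26 CPM (0.31, adjusted p = 0.00508), and Adamtsl3 by 0.61 on the log2 scale (adjusted p = 0.0226). Adamtsl3 was called in 8 of 13 alternative settings, and lost the call by DESeq2 and without F37, M31, F34 or M29. Adamts15 fell from 10.8 ± 0.471 to 8.43 ± 1.18 CPM (-0.36, adjusted p = 0.00324), and without M28 2 genes of the list were called lower. The most abundant genes of the list, Adamts10 (-0.07, adjusted p = 0.164), Adamts7 (0.03, adjusted p = 0.687) and Adamts3 (0.11, adjusted p = 0.162), were not called. Over the 3 lists of TSR proteins, 6 of 49 rose and 6 fell (24.5%), with a median log2 fold change of -0.02. Of all genes tested, 13.8% were called in either direction. The lists were made with results of these data known, so nothing is read from that share.

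Genes known for neuronal migration also moved in both directions. Of 24 tested, 4 rose and 2 fell, with a median of 0.0030. The small GTPase genes Rnd3 (160 ± 2.89 to 184 ± 8.24 CPM, log2 fold change 0.20, adjusted p = 9.85e-05) and Rnd2 (93.6 ± 1.71 to 105 ± 5.65 CPM, 0.16, adjusted p = 0.00174) rose. The dynein partner Nde1 (0.21, adjusted p = 0.00198) and the adhesion receptor Adgrg1 (0.12, adjusted p = 0.00702) rose as well. Cdk5r2, an activator of the kinase Cdk5, fell from 85.1 ± 2.43 to 72.1 ± 2.07 CPM (-0.24, adjusted p = 1.28e-05), and Srgap2 fell from 212 ± 5.89 to 193 ± 4.64 CPM (-0.14, adjusted p = 0.00143). The 4 that rose had every stress brain above every control brain, as did 8.20% of all genes tested. Cdk5r2 and Srgap2 had every stress brain below every control brain, and the share of all genes separated downward was not counted. All 6 were called in 13 of 13 alternative settings. These genes were named for a small p in this contrast, and the alternatives reuse the same brains. Neither separation nor stability is therefore read as support. The abundant cytoskeletal genes Tuba1a (-0.0016, adjusted p = 0.982), Tubb2b (-0.03, adjusted p = 0.468) and Map1b (0.02, adjusted p = 0.743) were not called. Over all 7 lists from the sugar donor to migration, 12 of 102 tested genes rose and 8 fell (19.6%), with a median of -0.01. The lists were made with results of these data known, so the share is given beside the background of 13.8% and no test was made.

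**Figure D4:**
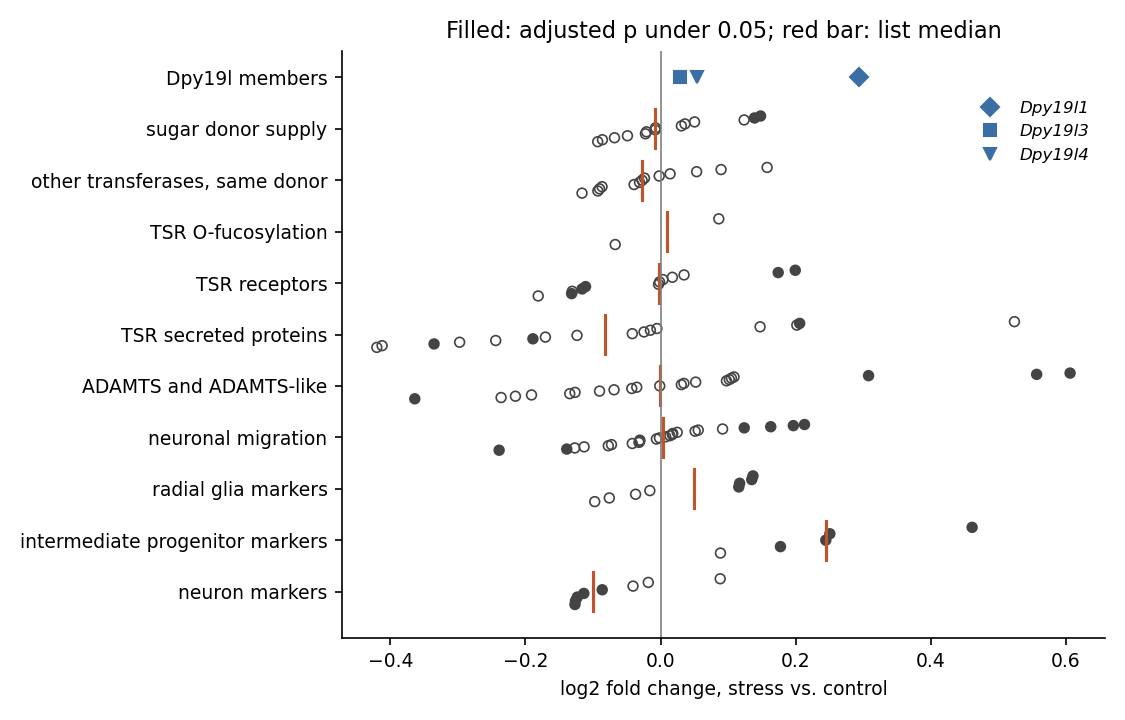
Log2 fold change of stress against control (x axis) for the 3 members and for each tested gene of the lists (rows); filled circles have an edgeR adjusted p under 0.05, red bars are list medians, and the members' symbols carry no test. Most list medians lie near 0, Dpy19l1 lies at 0.29, intermediate progenitor markers lie mainly to the right (median 0.24) and neuron markers mainly to the left (median -0.10).

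Markers of dividing and of postmitotic cells differed between the same groups, and in bulk RNA fewer cells of a type and less RNA per cell cannot be told apart. Of all genes tested, 6.49% were called higher in stress by edgeR and 7.27% lower. The marker lists were made with results of these data known, so nothing is read from their counts of called genes. Of 5 intermediate progenitor markers, 4 rose and 0 fell, and their summed level was 311 to 337 CPM in control and 344 to 384 CPM in stress brains. Eomes rose from 91.1 ± 1.22 to 108 ± 4.70 CPM (log2 fold change 0.25, adjusted p = 8.4e-06) and Neurog2 by 0.24 (adjusted p = 0.000169). Btg2 (0.18, adjusted p = 0.00692) and Neurog1 (0.46, adjusted p = 0.0247) rose as well, Neurog1 not by DESeq2, and Insm1 was at 0.09 (adjusted p = 0.0598). Of 8 radial glia markers, 4 rose and 0 fell (summed 1529 to 1623 against 1559 to 1686 CPM), with a list median of 0.05. Those that rose were Pax6 (0.14, adjusted p = 0.00384), Vim (0.12, adjusted p = 0.00643), Sox2 (0.12, adjusted p = 0.0104) and Nes (0.14, adjusted p = 0.0185, not called by DESeq2). The other 4 markers had values below 0 and were not called, among them the most abundant, Fabp7 (-0.02, adjusted p = 0.76). Of 8 neuron markers, 0 rose and 5 fell (5971 to 6156 against 5748 to 5983 CPM), with Gap43 at -0.12 (adjusted p = 0.00524), Rbfox3 at -0.13 (adjusted p = 0.0088), Syt1 at -0.11 (adjusted p = 0.0147) and Stmn2 at -0.09 (adjusted p = 0.0421). Tubb3, the most abundant, was not called (-0.02, adjusted p = 0.694). Neurod6, named after its values were seen, was the only neuron marker above 0 (0.09, adjusted p = 0.0557), and 1 neuron marker was called higher with no filter on low counts, without F37 and without F34. Leaving out F36, M31, M28 or M29 left 3 neuron markers called lower, and leaving out F34 left 2. Both neuronal and progenitor markers were above the median gene tested (16.3 TPM), as the labelled tissue calls for, except Neurog1 at 8.34 TPM. No marker was at 0 in all brains. The part of these cell types in the Dpy19l1 difference was not tested.

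Markers of non-neural cells moved less evenly. Here too the background was 6.49% of all genes called higher and 7.27% lower, and nothing is read from the counts. Of 7 blood markers 2 rose, the embryonic globins Hbb-y (0.84, adjusted p = 0.00012) and Hba-x (1.09, adjusted p = 2.21e-05), and 1 fell, Hbb-bs (-0.14, adjusted p = 0.00976; 0 without F37 or F34), with sums of 364 to 410 CPM in control and 370 to 384 CPM in stress brains. Hba-a1 (-0.04, adjusted p = 0.477) and Hba-a2 (0.0087, adjusted p = 0.923) were not called. Of 5 endothelial markers, 3 fell, Kdr (-0.29, adjusted p = 8.35e-05), Tek (-0.23, adjusted p = 0.0359) and Cldn5 (-0.13, adjusted p = 0.0267), and Cdh5 was at -0.05 (adjusted p = 0.625), with sums of 124 to 138 against 112 to 122 CPM. By DESeq2, or without F37, M31 or M28, 1 endothelial marker was called lower. Of 4 tested mesenchymal markers, the collagen genes Col3a1 (1.04, adjusted p = 0.00249), Col1a1 (1.59, adjusted p = 0.00732) and Col1a2 (0.79, adjusted p = 0.0125) rose, a count of 3, with sums of 12.4 to 25.7 CPM in control and 17.0 to 59.99 CPM in stress brains, where M28 was the highest. DESeq2 called none of these 3, without M28 1 was called, and without F36 5 passed. Without the stress brain M28 the log2 fold change of Dpy19l1 was 0.28. Of 5 microglial markers, 0 were called by edgeR or DESeq2 (summed 25.6 to 29.4 against 25.3 to 29.3 CPM). By edgeR, 0 of them had an unadjusted p under 0.05, where 4800 of the 17865 genes tested had one. The most abundant were C1qb (-0.07, adjusted p = 0.7), C1qa (-0.05, adjusted p = 0.8291) and Csf1r (0.07, adjusted p = 0.637). Whether blood, vessel or mesenchymal content had a part in the Dpy19l1 difference was not tested.

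The genes with the pattern most like each member were taken from 11961 genes with at least 5 CPM on average, by the root mean square difference of centred log2 CPM over the 8 brains. The 5 nearest to Dpy19l1 were Cenpa (0.0308), Ttf2 (0.0337), Pole (0.0352), Tipin (0.0355) and Zfand1 (0.0378), where the median gene differed by 0.163. Cenpa went from 29.7 ± 0.796 to 36.5 ± 1.41 CPM and Pole from 26.6 ± 0.58 to 33.0 ± 0.964 CPM. The 3 nearest to Dpy19l3 were Nfat5 (0.0247), Zfp113 (0.0266) and Emb (0.0283), against a median of 0.0923. The 3 nearest to Dpy19l4 were Msi2 (0.0121), Ahctf1 (0.0141) and Bdp1 (0.0174), against a median of 0.0807. All 8 brains enter both sides of this measure, so a shared group difference is part of it.

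**Figure D5:**
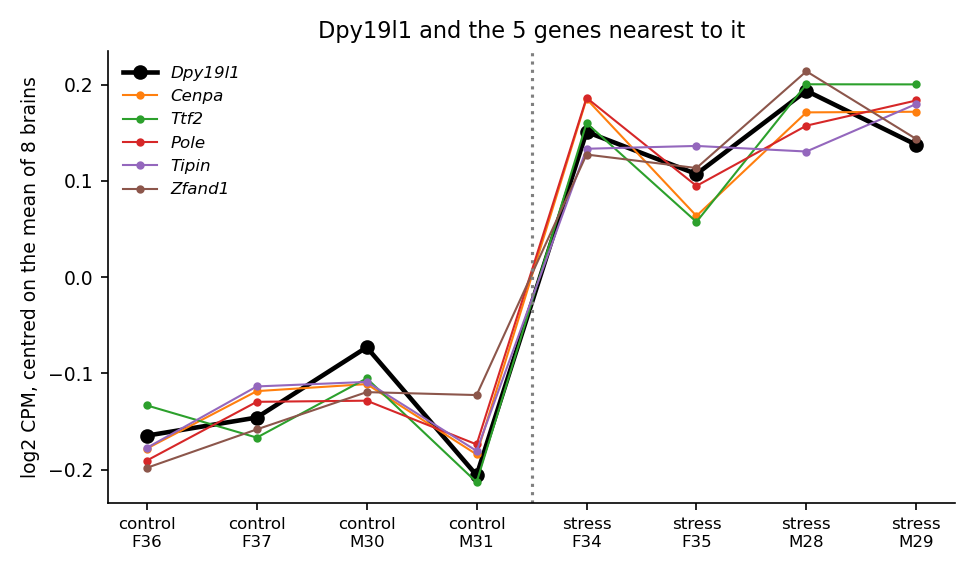
Log2 CPM, centred on each gene's mean over the 8 brains (y axis), in each brain (x axis), for Dpy19l1 (thick black line) and the 5 genes nearest to it. All 6 lie below 0 in the 4 control brains and above 0 in the 4 stress brains.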

How the data were processed

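Paired-end RNA libraries of 8 fetal brains were sequenced on a BGISEQ-500. The authors trimmed the reads, used TopHat2 2.1.1 for alignment (mm10), and summed pairs per gene over GENCODE exons in featureCounts 1.6.3, with no strand setting stated. The deposited files hold these raw counts. From them, edgeR 4.0.16 (R 4.3.3) kept 17865 of 54752 genes (filterByExpr, minimum count 10), scaled totals by TMM and fitted sex and condition, or their interaction, by quasi-likelihood, with Benjamini-Hochberg adjustment over all genes and a threshold of 0.05. The study's model also held batch, but no batch is named for these brains. SEs were taken from the fold change and its F statistic, and intervals span 1.96 SE. TPM used exon lengths. Patterns used log2 CPM with a prior count of 2. The edgeR fits of stress and of sex were run on simulated independent counts with known changes. That simulation did not cover the interaction, littermates or DESeq2. Alternatives were DESeq2 1.42.0, RLE or upper-quartile scaling, no filter, no covariate, and leaving out each brain.

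The members and gene lists were chosen with earlier results of these data known. Named were the family, in each list the called genes with the smallest p (up to 4 in each direction) and the 3 most abundant genes, and the nearest patterns. Symbols matched 54723 identifiers.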

Additional observations from a re-analysis of the deposited data

Results flagged for a closer look

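The stress difference of Dpy19l3 had opposite signs in females and males, with each stress female above each control female and each stress male below each control male. Of all genes tested, 838 (4.69%) were likewise apart in opposite directions in the sexes. The difference in females minus that in males was 0.22 on the log2 scale (SE 0.07, 2 brains per sex and group), with an edgeR adjusted p = 0.51 over all genes (0.388 to 0.9999 over 12 alternatives). Leaving out each brain in turn gave 0.17 to 0.26. No brain stood apart from its group in the CPM of any member by Dixon's criterion, with the sexes pooled. This check has little power in groups so small, and it does not address the 2 brains per sex and group.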

How the results depend on the processing

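The stress differences of the 3 members moved by less than 1 SD between replicates in each of 13 alternatives. Leaving out 1 brain in turn gave 0.27 to 0.32 for Dpy19l1, -0.0021 to 0.07 for Dpy19l3 and 0.04 to 0.07 for Dpy19l4 on the log2 scale. The female minus male difference of Dpy19l3 (main -0.0054) ranged from -0.0331 to 0.0347 in these fits and turned positive in 3 of them. The interaction of sex and stress ranged from -0.0872 to 0.0456 for Dpy19l1 and from -0.0189 to 0.0647 for Dpy19l4, so neither sign held. None of these sex or interaction results passed the threshold under any alternative. Over the 7 lists from the sugar donor to migration, DESeq2 called 5 genes lower in place of 8, and leaving out 1 brain called 4 to 9, with 5 without the control brain F37 and 4 without the stress brain M29; genes called higher ranged from 8 to 14 (12 with all brains). The causes were not tested. On another unit, RPKM on TMM-scaled totals, the levels of Dpy19l1, Dpy19l3 and Dpy19l4 were 24.95, 5.64 and 5.70, the same values divided by a factor common to all genes of a brain. No paired analysis was possible because each brain has an animal number of its own and the groups come from different litters. With 2 brains per sex and group, the sex-specific differences rest on few animals, and Dpy19l2 is limited by 11 to 30 read pairs per brain.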
